A study of Mus musculus with 39 samples.

Results

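Gene expression in brown fat of mice on a high fat or a low fat diet was compared over the first 14 days of feeding, on 10 of the 39 arrays of the study. These are the arrays whose labels give the low fat control diet (LFC) or the high fat diet (HFC) at Day 1, Day 6, Day 10, Day 14 or Week 0, with 1 array per diet and time label, so that 5 HFC arrays were set against 5 LFC arrays. All mice were C57BL/6J, a common laboratory strain, and entered the diets after weaning, at 3 to 4 weeks of age. In LFC 10% of the calories came from fat. In HFC 60% did, with more sucrose, and none of the 10 arrays received the botanical formulation given to other groups of the study. The labels name the material as infiltrating macrophages from brown fat, that is, stromal vascular cells, which remain when the fat cells are removed. Weeks were counted from Day 14 in the study's methods, so Day 14 and Week 0 mark the same day. The labels speak of 3 biological replicates, but each diet had 1 array per label here, and no label says whether an array held 1 animal or a pool. The error of every difference below therefore rests on its spread over 5 time labels, which holds change with time as well as the variation of animals and arrays. The SE is that of limma, the software of the test, which moves the spread of a probe towards that common to all probes.

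Brown fat burns fatty acids and glucose to make heat through uncoupling protein 1 (Ucp1), and its fat cells also make new fatty acids from sugar. In that pathway, lipogenesis, citrate that leaves the mitochondria is turned into acetyl-CoA, built up into saturated fatty acids, and then elongated and desaturated, with NADPH from malic enzyme and the pentose phosphate pathway. Its genes are driven in liver and fat by the transcription factors SREBP-1c and ChREBP, which respond to insulin and to glucose, and in these tissues they are known to be lowered by feeding on fat.

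Expression is given as log2 of the spot signal minus the 75th percentile of the array, so that 0 is that percentile and a difference of 1 is 2-fold. The 75th percentile lay between 46.8 and 467.6 intensity units, and 45.5% to 90.1% of spots were well above background (median 59.3%), with the highest share on the HFC array of Day 1. No slide was shared by these arrays. The diets of Day 10, Day 14 and Week 0 were scanned on the same date within each label, and those of Day 1 and Day 6 were not. In the titles, BAT is named for the HFC array of Day 1 and for the LFC array of Day 6 and for none of the other 8. The title of the LFC array of Day 6 also opens with a prefix that differs from that of the other arrays. What this prefix stands for is not known here. Of 40628 probes, 24978 passed the scanner software's test for signal well above background on 5 or more arrays, and 18129 genes were then read from their brightest probe.

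The LFC array of Day 10 stood apart from the others. Ucp1, the heat-producing uncoupler that defines brown fat, had log2 levels of 2.82, 6.02, -3.16, 6.23 and 5.54 on the LFC arrays of Day 1, Day 6, Day 10, Day 14 and Week 0. On the HFC arrays it had 4.83, 4.63, 5.93, 6.66 and 5.80. All 12 genes of a list for mesothelium, the lining of visceral fat, were highest of the 10 arrays on LFC Day 10. Krt18, a keratin of such linings, had 7.07 there and -3.13 to -0.58 elsewhere. Msln, which encodes mesothelin, had 3.46 against -6.75 to -2.19. Of 14 genes of epididymis and germ cells 8 were also highest there, among them Lcn5, an epididymal lipocalin, with 4.15 against -6.85 to -4.55. Values without Day 10 are given beside some of the genes and lists, and others moved as well. The label names macrophages, and all 24 macrophage markers were measured, with 22 to 24 of them well above background on each array. Fat cell markers were present too, with 18 to 19 of 19 general adipocyte genes and 14 to 19 of 19 brown adipocyte genes well above background on each array. In bulk samples like these, fewer cells of a type and less RNA per cell cannot be told apart.

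Scd1 was the gene that passed the test over all probes. It encodes stearoyl-CoA desaturase, which turns saturated into monounsaturated fatty acids. On LFC arrays its log2 level was 5.27 at Day 1, 5.58 at Day 6, 5.02 at Day 10, 6.89 at Day 14 and 6.13 at Week 0. On HFC arrays it was 1.08, 1.24, 1.18, 1.78 and 2.0 at the same labels. The diets did not overlap, with means of 5.78 ± 0.75 in LFC and 1.46 ± 0.41 in HFC (SD, n = 5 each). Scd1 fell by 4.32 on the log2 scale (SE 0.27, 20.0-fold lower in HFC, limma adjusted p 0.0139), and the difference was -4.19, -4.34, -3.83, -5.11 and -4.14 at the 5 labels. It was 1 of 24978 probes called (0.004%). The size hardly depended on any single label, at -4.44 without Day 10 and -4.36 over the 3 labels of 1 scan date, but with 4 labels the adjusted p lay between 0.0694 and 0.328 (limma), so the call needs all 5 labels. With normexp background correction the difference was -3.61 and the limma adjusted p 0.246.

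Without adjustment, 994 probes lower in HFC (3.98%) and 2007 higher (8.04%) had a p under 0.05. This split was not stable, since 869 of 2343 such probes were higher with quantile normalization and 589 of 1774 among probes well above background on all 10 arrays. Scaling moved the centre of the differences, whose median was 0.03 as given here, -0.09 after quantile normalization and -0.13 after normexp. In simulated data of this spread 43.5% of 4-fold and 0% of 2-fold changes were recovered, so 2-fold changes of single genes were not detectable with 5 labels.

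The genes of fatty acid synthesis were the group with the lowest median difference of the 29 lists examined. Of the 20 measured genes of the list, 12 were lower in HFC at all 5 labels and none was higher at all 5, beside 8.04% of all genes lower and 6.39% higher at all 5. The median difference of the list was -1.42, beside -0.0008 for all 18129 genes. It was -1.52 at Day 1, -2.02 at Day 6, -1.50 at Day 10, -1.18 at Day 14 and -0.97 at Week 0, and -1.42 with Day 10 left out. With normexp it was -0.79. Apart from Scd1 none of these genes passed the test over all probes.

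**Figure D1:**
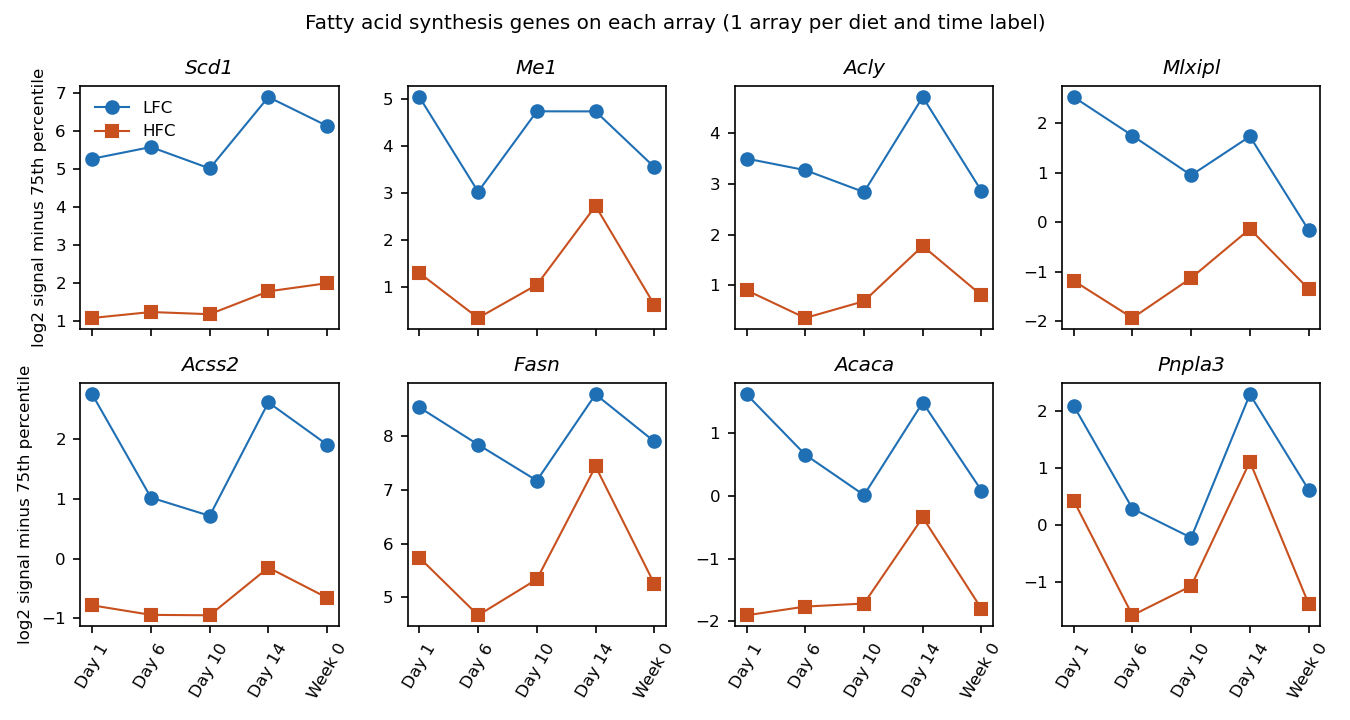
Log2 signal minus the 75th percentile of the array (y axis, scaled for each gene) at the 5 time labels (x axis) for the 8 genes of the fatty acid synthesis list with the lowest mean difference. Circles are the LFC array and squares the HFC array of a label, 1 array each, and every square lies below the circle of the same label.

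Enzymes that supply acetyl-CoA were among the lower genes. Acly, ATP-citrate lyase, which splits citrate into acetyl-CoA, had levels of 3.50, 3.27, 2.84, 4.72 and 2.86 in LFC and 0.90, 0.35, 0.68, 1.77 and 0.80 in HFC, from Day 1 to Week 0. The diets did not overlap, and the log2 difference was -2.54 (SE 0.25, limma adjusted p 0.115). Acss2, which makes acetyl-CoA from acetate, had 2.75, 1.02, 0.72, 2.62 and 1.91 in LFC against -0.78, -0.94, -0.95, -0.15 and -0.66 in HFC. Again no HFC array reached the lowest LFC array (difference -2.50, SE 0.32, limma adjusted p 0.222). Slc25a1, the carrier that exports citrate from mitochondria, differed by -1.45 (SE 0.27) and was lower at 5 of 5 labels.

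Further probes did not always share the direction at the synthesis steps. Acaca, acetyl-CoA carboxylase, which commits carbon to fatty acids, had 1.61, 0.65, 0.01, 1.48 and 0.08 in LFC and -1.90, -1.76, -1.72, -0.35 and -1.80 in HFC. The difference was -2.27 (SE 0.33, limma adjusted p 0.222) without overlap, but the other 3 probes of Acaca gave -1.86, -0.41 and 1.03, of which the last had the opposite sign. Fasn, fatty acid synthase, had 8.54, 7.85, 7.18, 8.78 and 7.91 in LFC and 5.74, 4.67, 5.34, 7.44 and 5.25 in HFC, so the diets overlapped at the HFC array of Day 14. Its difference was -2.36 (SE 0.33, limma adjusted p 0.222) and that of its second probe -3.41 (SE 0.40). The first probe was saturated on 1 of the 10 arrays, where its level is a lower bound. Elovl6, which elongates the product, differed by -1.44 (SE 0.33).

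NADPH for the pathway comes from malic enzyme and from the pentose phosphate pathway. Me1, cytosolic malic enzyme, had 5.05, 3.03, 4.75, 4.74 and 3.56 in LFC and 1.30, 0.34, 1.04, 2.73 and 0.62 in HFC. These ranges did not overlap, and the difference was -3.02 (SE 0.32, limma adjusted p 0.128), or -2.90 for the probe under its older name Mod1. Tkt, transketolase of the pentose phosphate pathway, which was outside the list, had 6.47, 7.40, 6.43, 7.15 and 5.99 in LFC and 4.14, 4.82, 5.05, 5.86 and 5.02 in HFC, a difference of -1.71 (SE 0.32) without overlap. Acly and Me1 passed the test among the 15659 probes well above background on all 10 arrays (limma adjusted p 0.0175 and 0.0222), together with Scd1, the second probe of Fasn (0.0417) and LOC677317 (0.0175), and, except for Fasn, with a trended and robust variance (limma adjusted p 0.0265 for Acly, 0.034 for Me1).

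Among the regulators, Mlxipl, which encodes ChREBP, had 2.53, 1.75, 0.95, 1.74 and -0.16 in LFC and -1.18, -1.93, -1.13, -0.13 and -1.35 in HFC. It was lower at each label, with a difference of -2.51 (SE 0.43, limma adjusted p 0.278), and the LFC array of Week 0 lay within the HFC range. Srebf1, the gene of SREBP-1c, differed by -0.81 (SE 0.32) and was lower at 5 of 5 labels. Thrsp, a lipogenic nuclear protein, differed by -1.17 and was lower at 4. The exceptions in the list were Scd3, a second stearoyl-CoA desaturase, with 1.64 (SE 0.54, higher at 4 labels) and Fads1, a front-end desaturase, with 0.11 (SE 0.26). Scd2, a further desaturase, gave -0.84 (SE 0.41) and was lower at 3 labels.

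Promoters were searched for those members of the fatty acid synthesis list that were at least 2-fold lower at 4 or 5 labels. Of 10 such genes 9 had a promoter in the RefSeq table for mouse build GRCm38.p6. The window from 250 bases before to 50 after the start was searched on both strands for the E-box CACGTG, the sterol regulatory element TCACNCCAC and the CCAAT box, and the 250 bases before the start are printed 5′ to 3′ on the strand of the gene, with every match of either strand in capitals. The E-box was in the windows of 2 of the 9 genes (7.15% of all 32851 promoters), the sterol element in 1 (1.24%) and the CCAAT box in 7 (37.4%). The 2 sides differ in unit, since a gene counted if any of its starts had a match, whereas the percentages are of single promoters. Me1 and Mlxipl had 2 starts each, and the CCAAT box of Me1 was at only 1 of them. Mlxipl had 2 starts in the table, and its E-box begins at position -98 from the start in chr5:135089640-135089889 on the plus strand, with a CCAAT box at -173. The sterol element of Mlxipl begins at -136 from its other start, in chr5:135106641-135106890. Acss2 in chr2:155517793-155518042 on the plus strand had a CCAAT box at -73, and Fasn in chr11:120824548-120824797 on the minus strand had 3, at -90, -62 and -59, of which the last 2 overlap on opposite strands. Acaca and Aacs had no match of any motif. Bases are printed only for Mlxipl, Acss2 and Fasn, which had matches. The matches are letters in a window and no measurement of binding.
Mlxipl, start with the E-box: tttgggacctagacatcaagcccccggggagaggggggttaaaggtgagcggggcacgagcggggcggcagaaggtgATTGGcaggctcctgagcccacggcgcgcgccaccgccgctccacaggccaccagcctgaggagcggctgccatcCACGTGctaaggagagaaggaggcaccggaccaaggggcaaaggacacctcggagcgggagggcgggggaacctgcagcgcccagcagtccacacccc
Mlxipl, start with the sterol element: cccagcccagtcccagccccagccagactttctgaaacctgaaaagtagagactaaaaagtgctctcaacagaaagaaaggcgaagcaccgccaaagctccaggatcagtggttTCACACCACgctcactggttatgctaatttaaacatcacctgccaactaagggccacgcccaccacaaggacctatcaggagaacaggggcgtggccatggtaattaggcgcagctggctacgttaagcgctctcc
Acss2: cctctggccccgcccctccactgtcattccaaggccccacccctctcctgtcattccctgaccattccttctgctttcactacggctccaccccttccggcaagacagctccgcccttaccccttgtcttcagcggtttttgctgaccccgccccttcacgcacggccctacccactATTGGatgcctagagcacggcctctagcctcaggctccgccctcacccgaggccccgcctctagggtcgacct
Fasn: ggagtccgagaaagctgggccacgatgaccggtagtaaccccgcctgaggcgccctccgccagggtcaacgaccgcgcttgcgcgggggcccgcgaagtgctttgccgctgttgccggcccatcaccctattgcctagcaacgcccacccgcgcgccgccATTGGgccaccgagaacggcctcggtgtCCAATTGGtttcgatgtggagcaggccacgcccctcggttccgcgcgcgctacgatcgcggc

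Counts over all genes in the 2 directions depended on the measure. At all 5 labels, with no threshold of size, 1458 genes were lower in HFC and 1158 higher. At least 2-fold at 4 or 5 of the 5 labels, 48 genes were lower in HFC (0.265%) and 323 were higher (1.78%). At all 5 labels these numbers were 15 and 40. Of the 48 lower genes 10 (20.8%) were in the fatty acid synthesis list, of which they made up 10 of 20. The HFC arrays all lay below the LFC arrays for 176 genes (0.971%) and all above them for 36 (0.199%). The 2 directions differed in brightness. Of the 323 higher genes 84 to 226 were well above background on a given LFC array and 282 to 322 on a given HFC array, whereas of the 48 lower genes it was 45 to 48 and 37 to 47. The direction of this split follows from how the genes were chosen. Among genes read from probes well above background on all 10 arrays, 32 were lower and 56 higher at 4 or 5 labels. With normexp, which pulls dim signals together, 8 lower and 13 higher genes were counted, and with quantile normalization 93 and 149. For 1 gene the smallest two-sided exact p that exchanging the diets within 5 labels can give is 0.0625, so these counts carry no p.

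**Figure D2:**
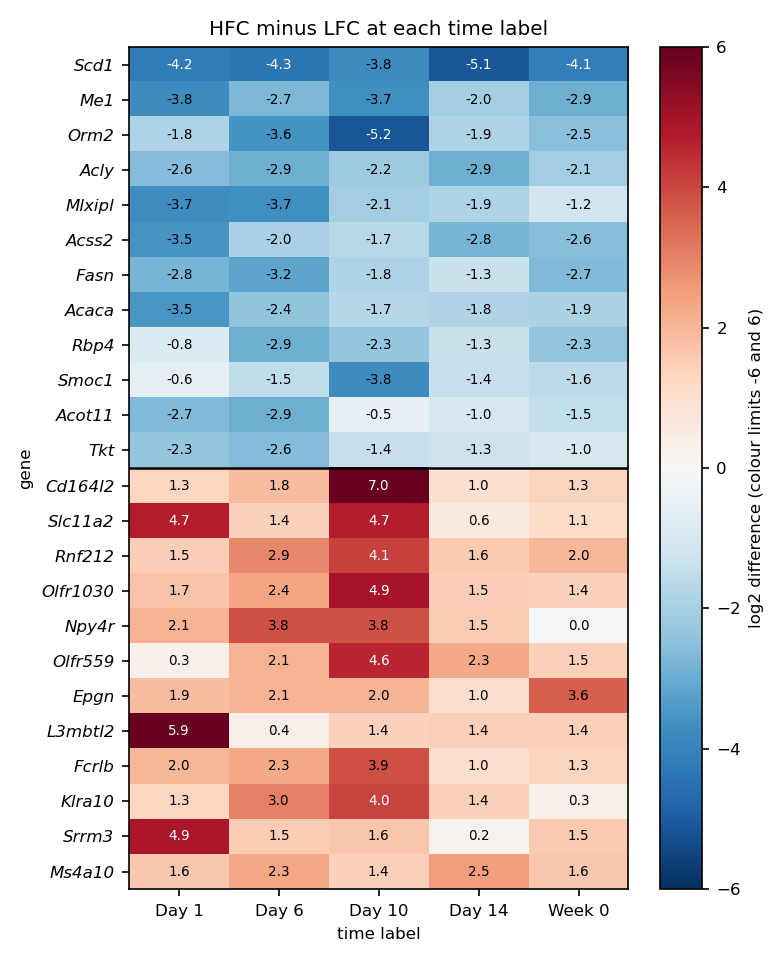
HFC minus LFC on the log2 scale for 12 lower and 12 higher genes (rows) at each time label (columns), 1 array per diet and label. The lower genes are below 0 at all 5 labels, and the higher genes have their largest values mostly at Day 1, Day 6 or Day 10.

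Besides the lipogenic enzymes, 4 further genes were among the 12 lowest. Orm2, the acute phase protein orosomucoid, had -1.27, -1.09, -0.46, -0.05 and -1.75 in LFC and -3.11, -4.69, -5.62, -1.91 and -4.26 in HFC, without overlap. The difference was -2.99 (SE 0.51, limma adjusted p 0.278), -2.45 without Day 10, and -0.76 with normexp. Orm2 was well above background on 5 LFC and 3 HFC arrays, so its size rests in part on background. Rbp4, the retinol carrier that fat cells secrete, had 1.84, 2.94, 3.78, 3.18 and 2.84 in LFC and 1.01, 0.02, 1.47, 1.85 and 0.49 in HFC, with a difference of -1.95 (SE 0.35). Its diets overlapped only through the LFC array of Day 1 and the HFC array of Day 14. Acot11, a thioesterase that releases fatty acids from acyl-CoA in brown fat, differed by -1.71 (SE 0.41), with the smallest difference at Day 10 (-0.47). Smoc1, a secreted matrix protein, differed by -1.76 (SE 0.45), and by -1.26 without Day 10, where its LFC array was far above the rest.

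Of the 12 highest named genes 4 to 11 were well above background on a given LFC array, and all 12 on each HFC array. Slc11a2, the iron transporter DMT1, had -5.04, -0.92, -2.41, -0.80 and -1.55 in LFC and -0.35, 0.44, 2.29, -0.21 and -0.43 in HFC, and was without overlap, which held for no other of the 12 (difference 2.49, SE 0.70, limma adjusted p 0.375). Without Day 10 the difference was 1.94. The second probe of Slc11a2, above background on all 10 arrays, gave 0.03 (SE 0.23). Rnf212, a meiotic recombination factor, had -2.41, -3.18, -3.81, -0.78 and -2.68 in LFC and -0.93, -0.30, 0.30, 0.79 and -0.69 in HFC (difference 2.41, SE 0.42, limma adjusted p 0.291). Ms4a10, a membrane-spanning protein, was higher by 1.43 to 2.49 at each label (mean 1.89, SE 0.26, limma adjusted p 0.222).

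Other genes of this group were the odorant receptors Olfr1030 (2.37, and 1.73 without Day 10) and Olfr559 (2.14, and 1.52 without it). Further ones were the pancreatic polypeptide receptor Npy4r (2.25), the growth factor epigen, Epgn (2.12), and the Fc receptor-like gene Fcrlb (2.1). The natural killer receptor Klra10 gave 2.01, and 1.51 without Day 10. Cd164l2 (2.50) took most of its difference from Day 10 and was 1.36 without it. L3mbtl2, a chromatin protein, gave 2.11 and 0.83 on its other probe, and 1.15 without Day 1. Srrm3, a splicing factor of neurons, gave 1.97, and 1.23 without Day 1. None passed the test (limma adjusted p 0.222 to 0.392). With normexp 10 of the 12 lay between -0.11 and 0.56, and L3mbtl2 and Srrm3 gave 1.39 and 1.61.

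Other pathways of fat and sugar were examined as lists. None of their genes passed the test over all probes. Their counts stand beside 8.04% of all genes lower and 6.39% higher at all 5 labels. Sterol synthesis, which shares SREBP control with lipogenesis, had a median difference of -0.36 with 8 of 24 genes lower at all 5 labels and none higher at all 5. Pmvk, phosphomevalonate kinase, gave -1.16, Insig1, the sterol sensor partner, -0.80, and Lss, lanosterol synthase, -0.69. The list of glucose uptake and insulin signalling had a median of -0.39 with 4 of 20 genes lower at all 5 labels, among them Slc2a4, the insulin-responsive glucose transporter GLUT4 (-1.23, SE 0.23), and Hk2, hexokinase 2 (-1.05). For Slc2a4 the LFC arrays had 4.2, 3.30, 3.39, 3.72 and 2.77 and the HFC arrays 2.78, 1.73, 2.19, 2.69 and 1.84, which overlap narrowly.

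General adipocyte genes had a median of -0.60 with 7 of 19 lower at all 5 labels (beside 8.04% of all genes). Agpat2, an acyltransferase of triglyceride synthesis, gave -1.48 (SE 0.37) without overlap, and Plin1, the coat protein of lipid droplets, gave -1.21. Adipoq, adiponectin, was lower at 5 of 5 labels at -1.13 (SE 0.35, limma adjusted p 0.383), with 3.87 ± 0.36 in LFC and 2.73 ± 0.68 in HFC (SD, n = 5 each). Fabp4, Pparg and Pck1 did not share this, at 0.08, 0.07 and 0.35. Whether the level of fat cell RNA had a part in the lipogenic differences was not tested. At the same labels the general adipocyte list had medians of -0.59, -1.53, -0.56, -0.22 and -0.21, each nearer to 0 than that of the fatty acid synthesis list.

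**Figure D3:**
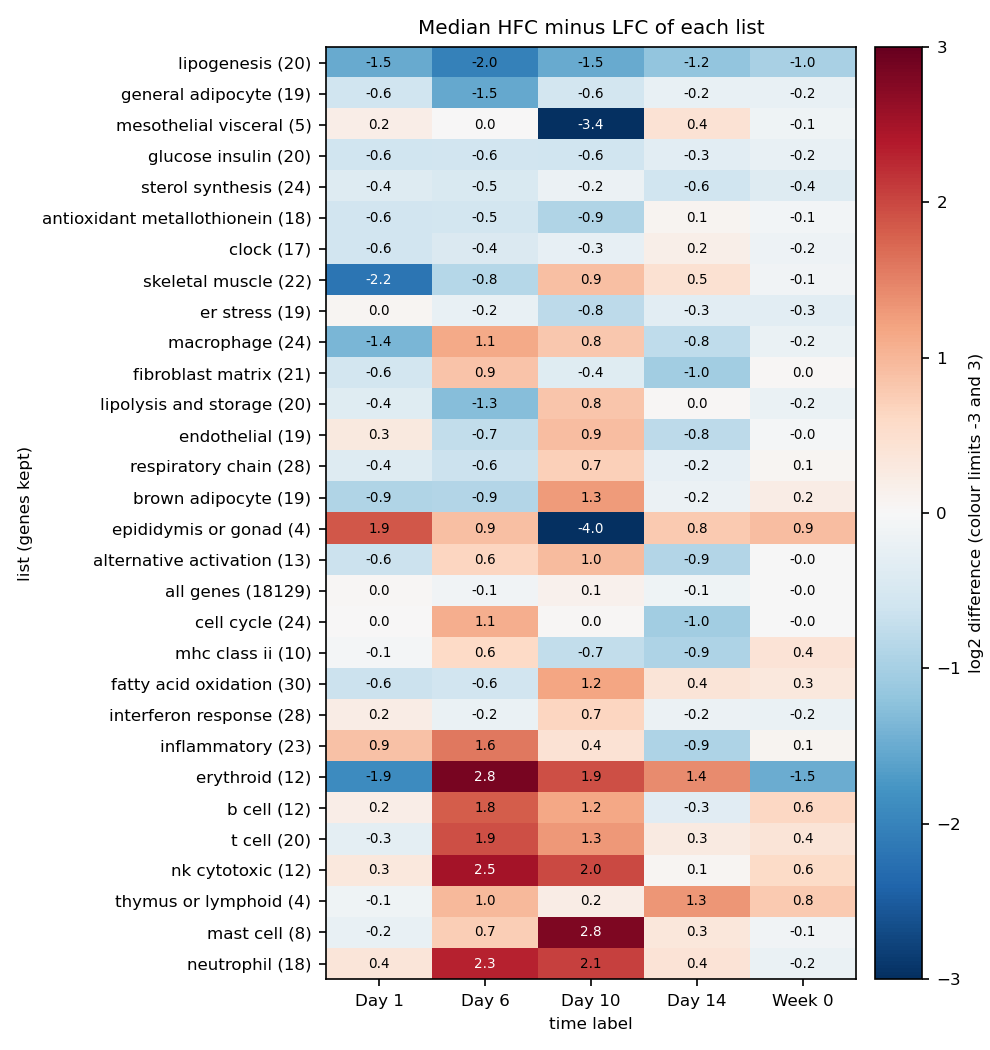
Median log2 difference of HFC minus LFC over the measured genes of each list (rows, number of genes in brackets) at each time label (columns), with all genes as a row of their own. Lipogenesis, general adipocyte, glucose insulin and sterol synthesis are the 4 lists below 0 at all 5 labels, and brown adipocyte is below 0 at Day 1 and Day 6 and at 1.28 at Day 10.

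Brown adipocyte genes showed no common direction. The median was -0.03, with labels at -0.91, -0.87, 1.28, -0.18 and 0.22, and -0.45 without Day 10. Ucp1 gave 2.08 (SE 1.38, limma adjusted p 0.533) and 0.33 without Day 10. Of the 19 genes 1 was lower at all 5 labels (beside 8.04% of all genes) and 1 higher (beside 6.39%). The higher one was Gk (0.71), which was well above background on 3 LFC and 5 HFC arrays. Adrb3, the beta-adrenergic receptor through which cold and catecholamines drive brown fat, was the lower one. It had 1.58, 1.18, 2.06, 2.09 and 1.80 in LFC and 0.19, -1.10, 0.88, 1.12 and -0.01 in HFC, a difference of -1.53 (SE 0.28, limma adjusted p 0.311) without overlap. Fatty acid oxidation had a median of 0.07, with -0.64 and -0.57 at Day 1 and Day 6 and 1.17, 0.39 and 0.32 at the later labels, and -0.18 without Day 10. Fabp3, a fatty acid carrier of oxidative tissue, gave 1.5, and 0.99 without Day 10. Respiratory chain genes had a median of -0.06, and of -0.28 without Day 10. Of these 28 genes 1 was lower at all 5 labels, a smaller share than the 8.04% of all genes, and none was higher.

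Macrophage genes had no common direction over the labels. The list had medians of -1.37, 1.14, 0.81, -0.77 and -0.20 from Day 1 to Week 0, and -0.17 over all labels (-0.36 without Day 10). At all 5 labels 1 of 24 genes was lower (beside 8.04% of all genes) and none higher. Adgre1 (Emr1 in the files), a surface receptor that marks mouse macrophages, gave -1.53, 1.92, 1.70, -0.74 and -0.30 (mean 0.21, SE 0.55, limma adjusted p 0.890). Cd68, a lysosomal macrophage protein, gave 0.14 (SE 0.39, limma adjusted p 0.895). None of 13 alternative activation genes kept 1 direction over all labels (median -0.01). Of 23 inflammatory genes 2 were higher at 5 of 5 labels (beside 6.39% of all genes), Cd86, a co-stimulatory ligand, and Nlrp3, an inflammasome sensor. Cd86 was well above background on 2 LFC and 4 HFC arrays and Nlrp3 on 1 and 4, so both passed the filter mainly through HFC arrays, and most of their LFC values are background. No size is given for them.

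Lists of other leukocytes had medians above 0 over the labels, with exceptions at single labels. Of 18 measured neutrophil genes 6 were higher at all 5 labels (beside 6.39% of all genes), and the median was 0.97, with -0.19 at Week 0. Mpo, myeloperoxidase of neutrophil granules, was well above background on all 10 arrays and gave 1.03. Csf3r, the G-CSF receptor, and Cxcr2, a chemokine receptor, were also higher at 5 of 5 labels, but each was well above background on 1 LFC and 4 HFC arrays. S100a9, an abundant neutrophil protein, did not share this (0.40, higher at 2 labels, and -0.20 without Day 10). Of 12 natural killer genes 6 were higher at all 5, with a median of 0.76 and with 0.06 at Day 14. Prf1, perforin, gave 1.72 and was well above background on 4 LFC and 5 HFC arrays, and Tbx21, a transcription factor of the lineage, gave 0.72 with all 10 above background. Gzmk, a granzyme, was above background on 1 LFC and 4 HFC arrays. T cell genes had a median of 0.73, with -0.30 at Day 1 and 2 of 20 genes higher at all 5 labels. B cell genes had 0.66, with -0.34 at Day 14 and 4 of 12 genes higher at all 5. Without Day 10 these 4 medians were 0.69, 0.65, 0.50 and 0.66, and they were largest at Day 6 (2.31, 2.50, 1.94 and 1.82). The LFC array of Day 6 is the one with the differing title prefix. The median level of the neutrophil list was -3.14 to -1.16 on LFC arrays and -1.40 to -0.44 on HFC arrays, among the dim probes. A member that passed the filter mainly through HFC arrays had to be higher there, so these counts and medians are descriptions. None of these genes passed the test over all probes.

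The differences were read again on 10 other arrays, the 5 later labels (Week 3, 9, 12, 15 and 18) with both diets. Of the 48 lower genes, 43 were also lower in HFC there (89.6%, beside 52.1% of 16941 genes), and the median went from -1.68 to -1.57. Of the 323 higher genes 209 had a later value, 144 of these were higher (68.9%, beside 47.9%), and the median went from 1.65 to 0.21. These shares and medians include Week 12 and were not taken again without it. Of the 48, Adrb3 went from -1.15 to -0.12 and Slc2a4 from -1.10 to -0.33 without Week 12, whereas Tkt was at -1.65. Week 18 also held large values, with -5.67 for Acaca and -5.41 for Slc25a1. Scd1 gave -3.08 (SE 0.38) and was lower at 5 of 5 later labels, and so were Me1 (-1.93), Fasn (-1.82), Acss2 (-2.53), Tkt (-1.64) and Orm2 (-2.51). The Acss2 and Orm2 values rest on Week 12, with -8.03 and -5.77 there and means of -1.15 and -1.69 without it (chosen after seeing the data). Acly, Acaca and Mlxipl were each higher at 1 later label, Acly by 0.92 at Week 18 and Acaca and Mlxipl by 2.51 and 3.01 at Week 9. Of the fatty acid synthesis list 19 of 20 genes were lower (median -1.71). Week 12 entered this count too, and it stood apart in other genes. There HFC minus LFC was -8.97 for Ucp1 and 10.34 for Krt18, and 11.1% of the spots of the HFC array were left out. Without Week 12 the later means of Aacs (0.40), Scd2 (0.18) and Srebf1 (0.02) were above 0. Those of Scd1 (-3.03), Me1 (-1.38) and Fasn (-1.82) stayed below it. No probe passed the test on the later arrays alone (0 of 24229, 0%, limma, 409 at an unadjusted p under 0.05) or for the early minus the later difference (0 of 24260, 0%, limma, 804 unadjusted), where 37% of 8-fold and 0% of 4-fold differences were recovered in simulated data. Macrophage markers had a later mean higher in HFC for 23 of 24 genes, but Week 12 weighed on this count too. Adgre1 and Cd68 gave 3.27 and 4.22 at Week 12, and later means of -0.66 and -0.06 without it. Not all changed sign, since Itgam, another of these markers, gave 0.46 without Week 12. The part of macrophage RNA in the later values was not tested.

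**Figure D4:**
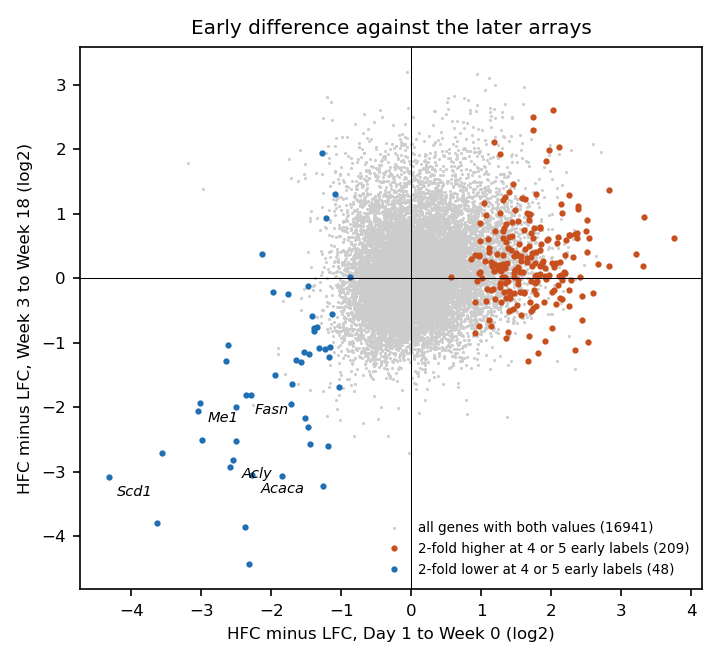
Mean HFC minus LFC (log2) on the 10 arrays of Day 1 to Week 0 (x axis) against that on the 10 later arrays (y axis), with 1 point per gene for 16941 genes. The genes at least 2-fold lower at 4 or 5 early labels lie mostly below 0 on the later arrays too, whereas the higher genes scatter around a median of 0.21.

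A trend of the diet difference with time was asked by a slope over log2 of the day. It passed for 0 of 24978 probes (0%, limma, 1884 at an unadjusted p under 0.05), and in simulated data 0% of changes of up to 16-fold were recovered, so no trend of these sizes was detectable. For Scd1 the slope was -0.07 and for Mlxipl 0.57 per doubling of the day (limma adjusted p 0.986 and 0.645).

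The size of the difference was also counted at each label without a test. Counting probes with signal above background on either array of a pair, 16439 were at least 2-fold apart at Day 1, 7667 at Day 6, 11817 at Day 10, 8662 at Day 14 and 3074 at Week 0. At Day 1, 13590 of them were higher in HFC and 2849 lower, where 90.1% of spots were well above background on the HFC array and 54.8% on the LFC array. With both arrays of a pair above background the counts were 5411, 4043, 7708, 4534 and 1452, and Day 10 had the most. The arrays of 1 diet on the same day differed as much. Counted on either array, 9782 probes were at least 2-fold apart between Day 14 and Week 0 in LFC and 15051 in HFC. With both arrays above background these were 4889 and 7794. The Day 14 and Week 0 arrays were scanned on different dates. Their 75th percentiles were 77.8 and 222.1 in LFC and 46.8 and 214.8 in HFC. The part of scan date and brightness was not tested. Over 18129 genes the differences of pairs of labels correlated by -0.09 to 0.31, where genes are no independent replicates and the labels share no array. Day 1 against Day 6 gave the lowest of these values and Day 6 against Day 10 the highest.

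**Figure D5:**
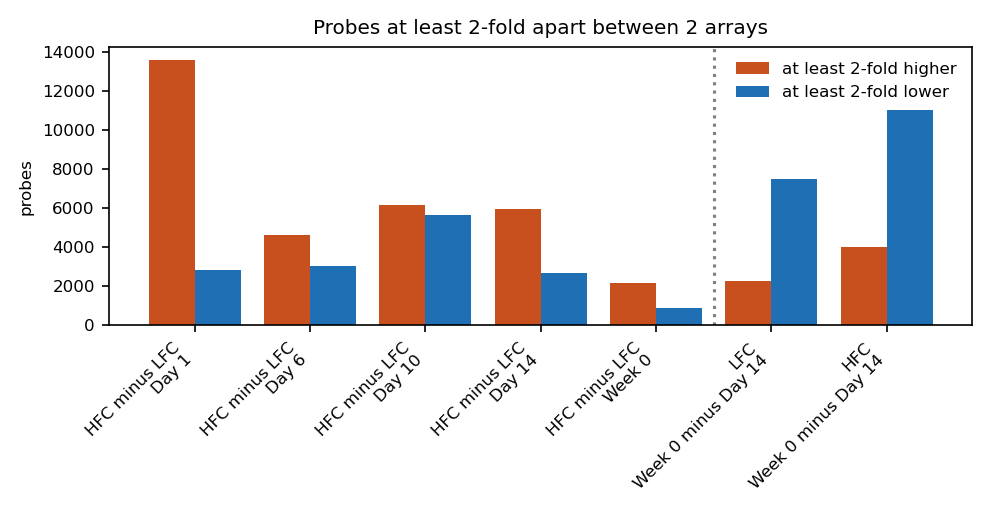
Number of probes (y axis, from 0) at least 2-fold higher or lower between 2 arrays, for HFC minus LFC at each time label and, right of the dotted line, for Week 0 minus Day 14 within each diet. Probes above background on either array of a pair are counted. Week 0 has the fewest between the diets (3074 in all) and the HFC arrays of Day 14 and Week 0, which mark the same day, have 15051.

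Several genes outside the naming rule were chosen after their values were seen. Slc2a5, the fructose transporter GLUT5, had 0.02, -0.51, 0.85, 1.23 and -0.36 in LFC and -1.95, -5.06, -4.37, -0.72 and -4.84 in HFC, where it was well above background on 2 of 5 arrays. Its diets did not overlap (difference -3.64, SE 0.56, limma adjusted p 0.233), and it was lower at 5 of 5 later labels (-3.79, and -2.99 without Week 12). Ncan, which encodes the brain proteoglycan neurocan, was well above background on all 5 LFC and no HFC array and so was at least 7.16-fold lower in HFC (limma adjusted p 0.222). Pygl, glycogen phosphorylase of liver type, gave -1.58 (SE 0.34) and Pgd, a dehydrogenase of the pentose phosphate pathway, -1.18 (SE 0.26), each lower at 5 of 5 labels without passing the test.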

How the data were processed

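RNA of the 10 arrays was hybridised to 1-colour Agilent mouse arrays, and groups follow the labels of each sample record. Per the file headers, the intensity in the deposited scanner files is Agilent's processed signal, from which the spot background had been subtracted (the submitters' notes name Agilent Feature Extraction 9.1), and the arrays had not been scaled to each other. Per the deposited value table, the authors also gave log2 ratios of each array to LFC at its label. In that table the column at 0 was headed LFC except at Day 14, where it was headed HFC, and the other column of Day 14 followed HFC minus LFC of the scanner files (correlation 0.995). It was used for this check alone, and exchanging the Day 14 diets is among the alternatives.

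Here the processed signal was taken as log2 minus the array's 75th percentile. Between 0.07% and 2.19% of the spots of each of the 10 early arrays carried an outlier mark of either kind and were dropped. Repeated spots of a probe were averaged. Arrays have no read depth, so signal over background and the number of arrays limit precision. Names came from RefSeq by accession for 28136 probes, by symbol for 4982 and by synonym for 1406, and 6104 kept the name in the file. The test was that of limma 3.58.1, run in R 4.3.3 (statmod 1.5.0), with the time label as a block, two-sided, Benjamini-Hochberg adjusted over all kept probes, with a threshold of 0.05. The early minus later test and the slope over log2 of the day used the same model, with Week 0 as day 14, and probes well above background on 10 or more of the 20 arrays where later arrays entered. An "at least" fold takes, on each array of the dim group, the higher of the probe's own signal and the lowest signal among probes well above background.

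The arrays of a label were paired as a check by the correlation of their deviations from the diet means, which was -0.07, 0.29, 0.19, 0.68 and 0.60 from Day 1 to Week 0. As these were not all over 0.1, the labels do not all pair the arrays, and the block was kept as planned.

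Named genes were those past the threshold, and those at least 2-fold apart in 1 direction at 4 or more labels, of the same sign at the other label, and well above background on 8 or more arrays, the 12 with the largest difference each way (34 lower and 65 higher qualified, of which 6 and 27 were clone names and were left out). To these were added list members with the largest differences and Scd1, Fasn, Ucp1, Adipoq, Adgre1 and Cd68. The gene lists, rules and tests were chosen with earlier results of these data known. Lists were described by counts and medians without a test. The fits were tested on simulated data with 200 probes changed.

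Alternatives were quantile normalization, normexp (offset 50), the filters on dim and on marked spots, the fit without the block, array weights, trended and robust variance, Day 14 and Week 0 averaged, scan date as a random block or as a filter on labels, each label left out, all 39 arrays in 1 fit, and the methods' t-test, paired and unpaired. Python 3.11.15 with numpy 2.4.6, pandas 2.3.3 and matplotlib 3.10.9 was used for the rest.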

Additional observations from a re-analysis of the deposited data

Results flagged for a closer look

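Within each diet, the array farthest from the others was checked for the 28 named genes, 56 sets of 5 arrays in all, and 2 sets had an array standing apart. Chance alone marks about 1 in 20 such sets. For Acaca, acetyl-CoA carboxylase, the HFC array of Day 14 was at -0.35, whereas the other 4 HFC arrays lay between -1.90 and -1.72 (gap over range 0.88). Acaca was lower in HFC than in LFC at this label too, by -1.83 on the log2 scale. For Smoc1, a secreted matrix protein, the LFC array of Day 10 was at 2.02 and the other 4 LFC arrays between -1.89 and -1.02 (gap over range 0.779). This is the array on which Ucp1 was lowest and all 12 mesothelial genes were highest. Their part in the Smoc1 value was not tested.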

How the results depend on the processing

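Depth does not apply to arrays, and dim probes are measured least precisely, so the counts depend on how dim signals are treated. The number of probes past the threshold, 1, became 5 among probes well above background on all 10 arrays and 4 with trended and robust variance, and it was 0 with normexp, without the filter on dim probes, with Day 14 and Week 0 averaged, with all 39 arrays in 1 fit, with the methods' t-test (1532 at an unadjusted p under 0.05) and its paired form (2657), over the labels of 1 scan date, which is the same fit as without Day 1 and Day 6, with the Day 14 diets exchanged (chosen after seeing the data), and without any 1 label (0 to 0). It stayed at 1 with quantile normalization, array weights, scan date as a random block and marked spots kept. Without the replicate block of time labels it was 1 too, Scd1 at a limma adjusted p of 0.00499, with 1429 probes at an unadjusted p under 0.05 in place of 3001. Labels left out gave limma adjusted p of 0.0694 to 0.328 for Scd1, and its difference under all alternatives but the exchange (-2.28) lay between -4.44 and -3.61. For genes apart at repeated labels, 48 lower and 323 higher, a 1.5-fold threshold gave 285 and 1093, 3-fold 14 and 56, quantile normalization 93 and 149, normexp 8 and 13, all 5 labels 15 and 40, and 3 of 4 labels with 1 left out 86 to 225 and 551 to 952. The higher count was 56 for probes well above background on all 10 arrays, 625 without the filter and 104 with the Day 14 diets exchanged. The median count of probes apart per label was 8662, and 4534 with both arrays above background. The lipogenesis median of -1.42 was -0.79 with normexp and -1.26 to -1.49 with 1 label left out. The cause of these shifts was not tested. No probe passed for the early minus later difference, the later arrays or the slope under any alternative run.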

Other observations

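Several other lists had medians that differed in size or sign between labels. Erythroid genes had medians of -1.90 at Day 1, 2.84 at Day 6, 1.93 at Day 10, 1.41 at Day 14 and -1.50 at Week 0, so the arrays of Day 14 and Week 0, which mark the same day, had opposite signs. Skeletal muscle genes had -2.19 at Day 1 and 0.89 at Day 10. Mast cell genes had 2.80 at Day 10 and -0.22 to 0.74 at the other labels, and a median of 0.29 without Day 10. Fcer1a, a chain of the IgE receptor, was higher at 5 of 5 labels but well above background on 2 LFC and 4 HFC arrays only. Tpsb2, a tryptase, was also higher at 5 of 5 (1.16, and 0.70 without Day 10), and Kit, the stem cell factor receptor (-0.71), and Gata2, a transcription factor of the lineage (-0.69), were lower at 5 of 5. None of these genes passed the test over all probes. Of the clock genes, Per1 (-0.63) was lower and Cry1 (0.77, well above background on 3 LFC and 4 HFC arrays) higher at all 5 labels, also without passing it, and the list had a median of -0.30. Hyou1, a chaperone of the endoplasmic reticulum, gave -1.03 and was lower at 5 of 5 labels, in a list with a median of -0.22. Nlrp2, an inflammasome gene, and Slc6a14, an amino acid transporter, had the large mean differences of 3.75 and 3.32, chosen after their values were seen, with -0.60 and -1.33 at Day 1 and 10.42 and 7.04 at Day 10. Without Day 10 the means were 2.08 and 2.39. Each was higher at 4 of 5 labels (limma adjusted p 0.396 and 0.383).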
